A study of Canis lupus familiaris with 20 samples.

Results

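The co-culture of the canine mammary adenocarcinoma line CMT-W1 with macrophages was examined in both populations sorted from it, the cancer cells and the macrophages. Its members were the arrays whose titles name CMT-W1, which were 4 of the 20 arrays of the study. One dye-swap pair of arrays compared CMT-W1 cells sorted from the co-culture with the same line grown as a mono-culture, and the other pair compared the macrophages (MQ) sorted from that co-culture with macrophages grown as a mono-culture. The other 4 co-cultures, which served for comparison, held the lines CMT-W2 (a second adenocarcinoma), P114 (anaplastic cancer), CMT-U309 (a spindle-cell tumour) and CMT-U27 (a simple carcinoma), with an array pair for each sorted population. The macrophages came from blood monocytes of healthy dogs, sorted by the antigen CD64, and were laid on cancer cells stained with the dye CMTMR. After 72 h the co-cultures were trypsinised and sorted by the stain, whereas mono-cultures were scraped, so sorting and detachment differed between co-culture and mono-culture in every pair. The sources used here do not say how many dogs gave cells or how many macrophage mono-cultures were grown apart, and each line is a single established line.

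Macrophages in mammary tumours secrete chemokines that draw in further monocytes, prostaglandins and growth factors for vessels, and they present antigen and degrade engulfed material in lysosomes. Tumour cells release colony-stimulating factors and cytokines that act on macrophages, and the traffic is reciprocal. CD163, a scavenger receptor for haemoglobin complexes, and CD80, a co-stimulatory ligand for T cells, are surface proteins of macrophages, and CCL2 is a chemokine that attracts monocytes.

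By the labels the 2 arrays of each pair were biological replicates, and by the methods they were a dye-swap of the same RNAs. They were therefore counted as 1 replicate, so that each population of CMT-W1 had n = 1 and its change against mono-culture carried no test. A gene was called up-regulated or down-regulated where its ratio of co-culture to mono-culture was at least 3-fold the same way on both arrays, and it was called measured where both arrays had the same culture well above background. Probes without a symbol were grouped by the array's own sequence name, so several of the genes counted here can be parts of 1 gene. Of 38230 genes counted in this way, 1037 had a symbol and can be named. Where a pair of values is given for CMT-W1, it is the log2 ratio of co-culture to mono-culture, first with the co-culture RNA in Cy5 and then in Cy3; a single value is the mean of both.

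The CMT-W1 cancer cell arrays were the dimmest of the cancer arrays. The median processed signal of the co-culture channel was 78.3 with the co-culture in Cy5 and 100.04 with it in Cy3, against 129.9 to 708 on the 8 arrays of the other lines. The co-culture RNA was well above background at 54.7% and 51.0% of spots, and the mono-culture RNA at 40.8% and 55.6%. In the other lines the co-culture RNA was above background at 54.6% to 96.3% of spots, with a median of 67.7%. The top of both ranges came from 1 CMT-U309 array, with the co-culture in Cy5, where 9870 spots were marked as outliers. The next highest values were 255.8 and 81.2%. The CMT-W2 array with the co-culture in Cy5 had 1438 such spots. Outlier spots were left out, so at those spots the pair means of these lines can rest on 1 array. The macrophage arrays of the same co-culture were not dim. Their co-culture RNA was well above background at 70.4% and 63.0% of spots, within the 54.5% to 74.7% of the other macrophage arrays, and no spot of the 4 arrays was saturated.

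**Figure D1:**
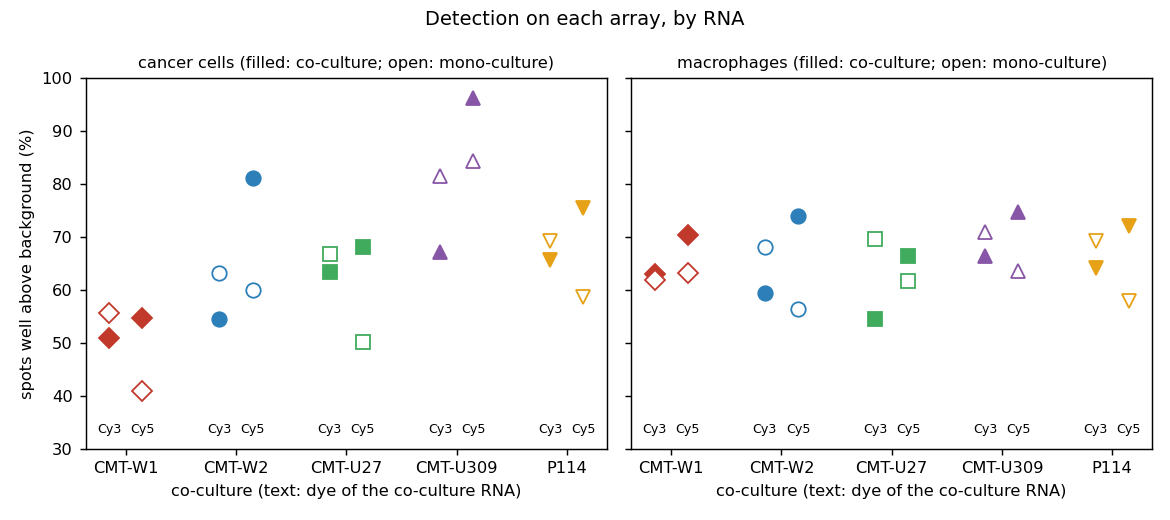
Share of spots well above background on each of the 20 arrays (vertical axis, percent), by co-culture (horizontal axis), for the co-culture RNA (filled) and the mono-culture RNA (open); Cy3 and Cy5 name the dye of the co-culture RNA. The lowest point of all is the CMT-W1 mono-culture at 40.8%.

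Among cancer cell ratios 18811 genes were measured, 49.2% of all and the fewest of the 5 lines. The ratios of the 2 arrays correlated with r = 0.85 over these genes, the lowest of the cancer pairs (0.88 to 0.94 in the others). At 16.8% of genes the scanner software had set the ratio to exactly 0 on both arrays, as it does where neither channel stood out from background. In the macrophages 24604 genes were measured and the arrays correlated with r = 0.89, the lowest of the macrophage pairs (0.95 to 0.96). These correlations run across genes, which are not independent replicates. The CMT-W1 cancer pair was alone among the cancer pairs on its slide, which it shared with the macrophages of CMT-U27, so slide and line cannot be told apart there; the CMT-W1 macrophages shared a slide with those of P114.

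The labelled cell types were checked against marker genes. Of 10 macrophage markers on the array, all were detected on both arrays in macrophage mono-culture, 8 in the sorted macrophages, 7 in the sorted CMT-W1 cells and 1, TYROBP, in CMT-W1 mono-culture. Their summed normalised signal was 918771 in macrophage mono-culture and 66508 in the sorted macrophages. In the sorted cancer cells it was 17607, and in CMT-W1 mono-culture 1262. Of 2 epithelial markers on the array, CLDN3 and MUC1, 1 was detected on both arrays in CMT-W1 mono-culture and 1 in the sorted CMT-W1 cells. Neither was called up-regulated or down-regulated there. CLDN3, a tight-junction protein, ran the other way from the macrophage markers, but was not 3-fold lower on both arrays. Its processed signals in the sorted CMT-W1 cells were 3760 and 3888, against 11833 and 9790 in the mono-culture on the same arrays.

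Genes particular to either mono-culture were then followed into the sorted populations. They were at least 16-fold higher in 1 mono-culture than in the other in each of the other 4 lines, and above background on all 8 of those arrays. The choice did not use the CMT-W1 arrays. Whether 1 macrophage mono-culture RNA served several pairs is not stated, so the choice may not be independent of that RNA. Genes chosen as high in a mono-culture have more room to fall than to rise against it, and the direction of their changes was not tested. For each other co-culture the genes were chosen in the same way without its own arrays, so the shares of the 5 co-cultures run over different genes. The 312 macrophage-specific genes had a median level in the sorted CMT-W1 cells of 4.48% of that in macrophage mono-culture, against 1.35% in CMT-W1 mono-culture. In the other sorted cancer populations, over their own sets, the share was 7.40% to 71.6%. Of the 312 genes, 173 were detected on both arrays in the sorted CMT-W1 cells and 37 in CMT-W1 mono-culture. The CMT-W1 shares thus lie partly at background, and their distance from the other lines is not set. In the sorted CMT-W1 cells 118 of the 312 were up-regulated, against 4.35% of all measured genes. In the sorted macrophages the same genes stood at 8.96%, with a median log2 ratio of -3.48. There 218 of them were down-regulated, against 9.54% of all measured genes. The 179 cancer-line-specific genes stood at 42.2% of the CMT-W1 mono-culture level in the sorted macrophages, against 3.39% in macrophage mono-culture. In the sorted macrophages 119 of them were up-regulated, against 15.1% of all measured genes. In the other co-cultures the sorted macrophages held such genes at 27.1% to 105% of the line's level. The part of the partner's cells or RNA in the ratios below was not tested, and in a sorted bulk sample fewer cells of a type and less RNA per cell cannot be told apart.

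**Figure D2:**
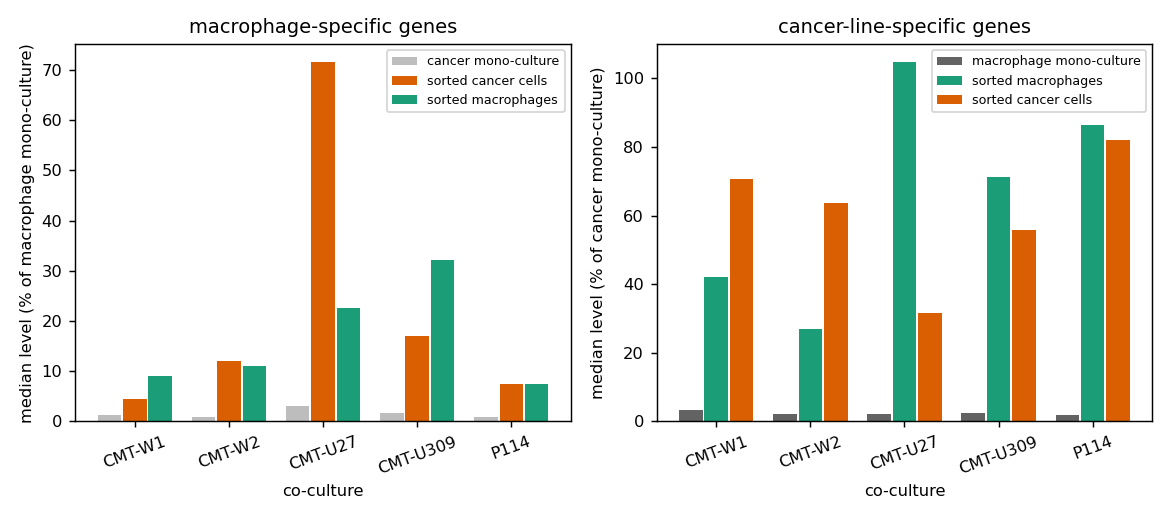
Median level of macrophage-specific genes (left, percent of the macrophage mono-culture) and of cancer-line-specific genes (right, percent of the cancer mono-culture) in the other mono-culture and in both sorted populations of each co-culture (horizontal axis). The sorted CMT-W1 cells hold macrophage-specific genes at 4.48%, and the sorted macrophages hold cancer-line-specific genes at 42.2%; each co-culture has its own set of genes. Of the 312 macrophage-specific genes of CMT-W1, 173 were detected on both arrays of its sorted cells.

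Fewer genes were called in the CMT-W1 cells than in their macrophages. In the cancer cells 819 genes were up-regulated (4.35% of those measured) and 428 down-regulated (2.28%), with 59 and 9 of the 618 measured genes that have a symbol. The macrophages had 3711 up-regulated genes (15.1%) and 2348 down-regulated genes (9.54%), with 122 and 115 of 756 named genes. In the other cancer lines 1173 to 2876 genes were up-regulated and 386 to 2401 down-regulated, and in the other macrophage pairs 3031 to 3631 and 1743 to 2530. As shares of the measured genes, the up-regulated and down-regulated genes of the cancer cells were 5.75% and 1.81% in CMT-W2, 12.2% and 10.1% in CMT-U27, 8.43% and 7.36% in CMT-U309, and 4.76% and 2.9% in P114. For the macrophages they were 13.1% and 7.52%, 13.3% and 9.34%, 13.6% and 8.39%, and 14.9% and 10.4% in the same order. With another background correction (normexp and loess), which adds an offset to dim signals, the cancer calls dropped to 213, of which 79.3% were up-regulated against 65.7% by the scanner ratios. The macrophage calls dropped to 2590.

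CD163 was higher in the sorted CMT-W1 cells than in their mono-culture, by an amount that the mono-culture signal does not fix. Its log2 scanner ratio was 1.67 and 2.55, beside 5.88 to 7.28 in the other 4 lines. The mono-culture signal was not well above background on either array (24.2 and 14.9, against 76.5 and 89.3 in the co-culture), so the change is a lower bound of at least 1.17-fold, and the place of CMT-W1 among the lines cannot be set from it. With normexp and loess the ratio was 0.22. The fitted difference of the scanner ratios from the other lines (-4.72 ± 0.69, SE) rests on that background signal, and it did not pass the adjustment over 17735 genes in limma (unadjusted p = 0.000315, adjusted p = 0.905). A second CD163 probe gave 1.87 in the cancer cells, where it was not measured, and -6.38 in the macrophages.

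In the macrophages CD163 had the lowest ratio of all named genes. It was -7.59 and -9.63, against -8.03 to -1.78 in the other co-cultures, so that 1 of the 2 CMT-W1 arrays lay inside that range. The processed signal went from 168127 and 132243 in mono-culture to 872 and 171 in the sorted macrophages. The difference from the other co-cultures was -3.95 ± 2.03 (SE; limma adjusted p = 0.319).

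CD80 was not measured in the cancer cells of CMT-W1, since the co-culture channel stood above background on 1 array only. Its scanner ratios there were 2.18 and 2.07, beside 5.47 to 6.62 in the other lines. In the macrophages CD80 was down-regulated, with -1.72 and -1.73, and lay inside the range of the other co-cultures (-3.69 to -0.82). CCL2 was bright in every RNA. It was up-regulated in the CMT-W1 cells (4.87 and 4.60), among the other lines (4.31 to 5.87), and its processed signal there went from 3015 and 4487 to 88096 and 109047. In the macrophages CCL2 was down-regulated (-4.38 and -5.67) and lay below the other co-cultures, which ran from -4.32 in CMT-W2 to 1.11 in CMT-U309 (limma adjusted p = 0.291).

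Chemokine ligands, which guide leukocytes to a tissue, were mostly up-regulated in the CMT-W1 cells, and more of them were down-regulated than up-regulated in their macrophages. Of 19 on the array, 8 were measured in the cancer cells, and 6 of these were up-regulated (CCL2, CCL3, CCL4, CCL5, CCL8 and CXCL8) while CCL28, an epithelial chemokine, was down-regulated (at least 3.89-fold lower). Of 11 measured in the macrophages, 6 were down-regulated and 2, CCL27 and CXCL10, were up-regulated. Over all measured genes, 4.35% were up-regulated and 2.28% down-regulated in the CMT-W1 cells, and 15.1% and 9.54% in the macrophages. These shares also stand beside the counts of the other lists. Over the chemokine ligands measured in all 5 co-cultures, the median log2 ratio was 4.40 in the cancer cells (4.18 to 5.20 in the other lines) and -2.56 in the macrophages (-0.37 to 2.23). In the macrophages CMT-W1 had the lowest ratio of the 5 co-cultures for 7 of these 10 genes, where 28.5% of all genes had it lowest there.

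CXCL8, the chemokine that attracts neutrophils, had the highest ratio in the CMT-W1 cells. It was 9.11 and 8.75, above the 5.23 to 8.47 of the other lines, though only 1 of the arrays had the mono-culture above background. With normexp and loess the difference from the other lines turned to -0.61, so CXCL8 was not above them under that setting. In the macrophages of the same co-culture it was -4.85 and -4.71, whereas the other co-cultures lay between -0.57 and 4.18. The difference there was -6.68 ± 1.65 (SE) and the change was in the same direction for all 4 probes of the gene, but it did not pass the adjustment in limma (unadjusted p = 0.00596, adjusted p = 0.247). Within the slide shared with P114, the difference was -8.97.

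Levels of CXCL8 were also compared between arrays, on a log2 scale after Aquantile normalization between arrays and averaging over both dyes. This set the intensities of the dim CMT-W1 cancer arrays to the same distribution as those of the other arrays. Differences of slide for single genes were not removed. CXCL8 stood at 7.72 in CMT-W1 mono-culture, the lowest of the 5 lines (10.46 to 13.43 in the others), and at 16.65 in the sorted CMT-W1 cells (18.66 to 19.59). It stood at 18.03 in macrophage mono-culture (15.64 to 17.45 on the other arrays) and at 13.25 in the sorted macrophages, below the 16.89 to 19.82 of the other co-cultures. The sorted CMT-W1 cells thus held more CXCL8 than the macrophages sorted beside them, which was the case in CMT-W2 and CMT-U27 too, but not in CMT-U309 and P114. CCL4, a monocyte and lymphocyte attractant, also lay below the other co-cultures in the macrophages, with ratios of -2.79 and -3.12 against -0.41 to 3.33 elsewhere (limma adjusted p = 0.247).

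CXCL10 and CCL7 were at background in the CMT-W1 cells. CXCL10, an interferon-induced chemokine, had processed signals of 42.7 and 27.4 in the co-culture, whereas its ratio was 4.22 to 6.91 in CMT-W2, CMT-U309 and P114 and -0.30 in CMT-U27. In the macrophages CXCL10 was up-regulated (4.20 and 4.62), among the other co-cultures. CCL20, which recruits dendritic cells, was unlike the rest of the list, with 0.44 and 0.47 in the CMT-W1 cells and 0.62 and 0.66 in the macrophages, the lowest of the 5 macrophage pairs.

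Of 7 chemokine receptors on the array 5 were measured in the CMT-W1 cells and none was up-regulated, and 3 were down-regulated in the macrophages. ACKR3, a scavenging receptor for CXCL12, had the largest decrease, with -5.28 and -6.59 against -5.43 to -0.48 in the other co-cultures. CCR1, a receptor of inflammatory CC chemokines, was at -4.10 and -4.41. The sorted CMT-W1 cells had ACKR3 at 1.69 and 1.25, a lower bound of at least 1.74-fold, beside 3.25 to 4.94 in the other lines.

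Cytokines, which carry signals between immune cells and tumour cells, were called in both directions. Of 10 measured in the CMT-W1 cells 5 were up-regulated (IL1A, IL6, IL12A, CSF2 and IFNB1) and none down-regulated. Of 12 measured in the macrophages 3 were up-regulated, IL6, IL12A and CSF2, and 6 were down-regulated (IL1A, IL1B, IL1RN, IL15, IL18 and TNFSF10). Of all genes measured in the macrophages, 15.1% were up-regulated and 9.54% down-regulated.

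CSF2, the granulocyte-macrophage colony-stimulating factor, was at 5.85 and 5.28 in the CMT-W1 cells and at 6.79 and 5.84 in the macrophages. In the macrophages both values lay above the other co-cultures (2.98 to 5.17), with a difference of 2.50 ± 0.85 (SE; limma adjusted p = 0.247). A second CSF2 probe gave 1.67 and 1.43 in the cancer cells and the macrophages, a much smaller change. The level in macrophage mono-culture also differed between pairs, from 7.42 on the CMT-U309 arrays to 12.41 on the CMT-W1 arrays.

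IL6, a cytokine of the acute phase, was at 4.90 and 4.85 in the cancer cells and at 5.82 and 5.93 in the macrophages. The mono-culture was not well above background in either pair, so the changes are bounds of at least 19.0-fold in the cancer cells and at least 23.8-fold in the macrophages. IL12A, a subunit of interleukin 12, was at 2.16 and 2.51 in the cancer cells and at 4.66 and 4.79 in the macrophages, there a bound of at least 7.45-fold.

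IL1A, the alpha form of interleukin 1, was near background in the CMT-W1 cells. Its scanner ratios were 1.97 and 2.74, beside 5.61 to 6.47 in the other lines, and the mono-culture was not above background, which gives at least 1.79-fold and no place among the lines. In the macrophages IL1A was down-regulated (-3.64 and -4.06), below the other co-cultures (-3.13 to -0.03). IL1B was not measured in the CMT-W1 cells and was -3.97 and -3.86 in the macrophages.

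The list of prostaglandin genes also held PLA2G7, named platelet-activating factor acetylhydrolase in the paper, which is not an enzyme of prostaglandin synthesis. All 3 genes of the list measured in the CMT-W1 cells were up-regulated. They were PTGS2 (cyclooxygenase 2, the inducible enzyme of prostaglandin synthesis), PTGES (a prostaglandin E synthase) and PLA2G7. In the macrophages 2 of 4 were down-regulated, PTGS2 and PLA2G7. PTGS2 was at 7.52 and 8.33, a bound of at least 84.2-fold since the mono-culture was at background, and the other lines ran from 3.95 to 9.95. In the macrophages PTGS2 was -5.25 and -5.44, whereas the other co-cultures lay between -1.46 and 2.93 (difference -5.90 ± 1.55, SE; limma unadjusted p = 0.00809, adjusted p = 0.247). Its level in the sorted macrophages was 10.74, against 14.22 to 18.22 in the other co-cultures, while macrophage mono-culture stood at 16.08 (15.29 to 15.68). PLA2G7 was at -4.16 and -4.89 in the macrophages and PTGES at -1.55 and -1.77, both the lowest of the 5 pairs. PTGES was not called there, nor was PTGES2, another synthase, which had a mean of 1.97.

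Macrophage surface and adaptor genes were the list with the lowest median in the macrophages. Of 12 measured, 11 were down-regulated, where 9.54% of all measured genes were. The median was -4.68, against -4.73 to -1.61 in the other co-cultures. CD40, a co-stimulatory receptor, was not down-regulated (0.40 and 0.90). After CD163, the largest decrease was that of C5AR1, the receptor of complement C5a, with -7.32 and -9.22. FCGR1A, which encodes the CD64 used to sort the monocytes, was at -5.48 and -5.82, and SLC11A1, a metal transporter of phagosomes, at -5.41 and -6.71.

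In the CMT-W1 cells 7 of the 8 measured genes of this list were up-regulated. The median scanner ratio was 2.54, beside 3.45 to 5.42 in the other lines. CD163, C5AR1 and FCER1G, among others, were at background in CMT-W1 mono-culture, so the median has no set place among the lines. FCGR1A was at 5.41 and 5.68 and CD86, a co-stimulatory ligand like CD80, at 4.90 and 4.88. These are bounds of at least 16.6-fold and at least 18.8-fold, so their place among the other lines is not set. C5AR1 was at 3.11 and 3.56, a bound of at least 4.45-fold, and CD40 at 1.86 and 1.72 with its mono-culture above background on 1 array, beside 4.15 to 6.97 and 4.19 to 6.71 in the other lines. CD209, CD36 and ADGRE1, which mark dendritic cells, lipid uptake and macrophages, were not measured in the CMT-W1 cells.

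Lysosomal genes, which degrade engulfed material, were called in part in both populations. Of those measured in the cancer cells 4 of 9 were up-regulated, with a median of 1.83 (1.48 to 3.61 in the other lines). This median is the value of CTSA, whose other measured probes gave -0.82 and 0.13, so it rests on the choice of probe. The highest were CTSS and CTSK, the cathepsins of antigen processing and of bone matrix, at 5.17 and 5.47 and at 4.48 and 5.00. CTSS was not detected on both arrays in CMT-W1 mono-culture, so the size of its change is not set. In the macrophages 6 of 9 were down-regulated, where 9.54% of all measured genes were. CTSK and CTSS had the largest decreases there, -5.79 and -5.67 and -5.36 and -5.82. The subunits of the phagocyte oxidase, which makes superoxide, were not called in the cancer cells. CYBA and CYBB were each lowest in CMT-W1, at -0.23 and -0.09, and at -0.28 and -0.51. Of the Toll-like receptors, which sense microbial products, TLR4 was up-regulated in the cancer cells (mean 3.39) and down-regulated with TLR2 in the macrophages (-4.06 and -4.75, and -4.86 and -5.47).

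Antigen presentation genes had low ratios in the CMT-W1 cells among the 5 lines. Of 9 measured in the cancer cells 5 were up-regulated, and 8 of the 9 had their lowest ratio in CMT-W1, where 17.1% of all genes had it lowest; PSMB8 is among the 8 with a mono-culture at background, so its place is not set. DLA-64, a class I gene of the dog, was at 2.65 and 2.42 and DLA-DQB1, of class II, at 2.16 and 1.97. PSMB9, a subunit of the immunoproteasome, was at 0.35 and 0.43 against 2.04 to 3.76 in the other lines (difference -2.52 ± 0.77, SE; limma adjusted p = 0.905), and TAPBP, which loads peptides on class I, was at -0.32 and -0.17 against 1.31 to 1.77. In the macrophages 1 of 10 was called, DLA-79, which was up-regulated (2.78 and 3.04) and above the other co-cultures (-1.80 to 1.91). The class II genes DLA-DRA and DLA-DQB1 had means of 1.55 and 1.74 in the macrophages.

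The interferon-stimulated genes MX1, OAS1 and OAS2, which restrain viruses, were the 3 of that list measured in the CMT-W1 cells and were all up-regulated. OAS2 was at 4.38 and 4.86 and OAS1 at 3.95 and 4.77, bounds of at least 22.3-fold and at least 9.77-fold, and MX1 at 3.32 and 4.40, a bound of at least 14.5-fold. In the macrophages OAS1 and OAS2 were down-regulated, with means of -1.93 and -3.11. There 4 of the 5 measured genes of the list were lowest in CMT-W1, where 28.5% of all genes were lowest. MX1 was near 0 there (-0.14 and -0.22).

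**Figure D3:**
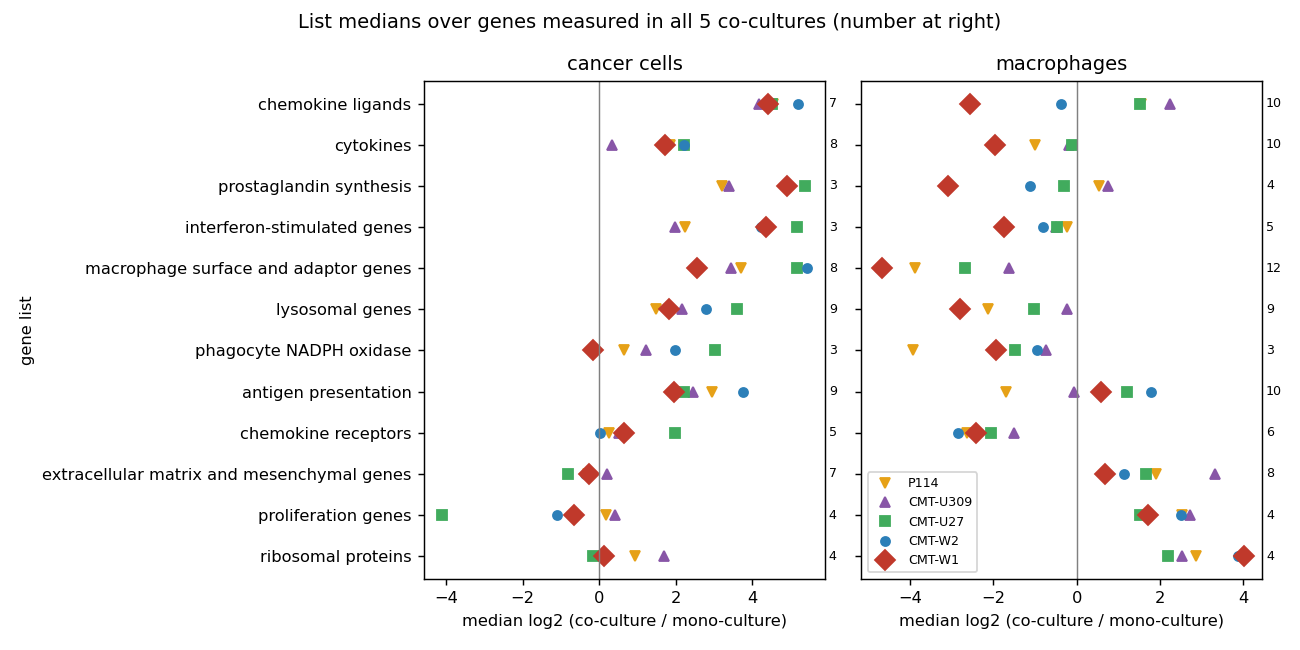
Median log2 ratio of co-culture to mono-culture (horizontal axis) over the genes of 12 lists (vertical axis) that were measured in all 5 co-cultures, in the cancer cells (left) and the macrophages (right); the number of genes is at the right of each panel. CMT-W1 (large diamonds) has the lowest median for chemokine ligands, prostaglandin synthesis and interferon-stimulated genes in the macrophages. It is also lowest there for matrix and mesenchymal genes (0.69, against 1.13 to 3.31) and, by little, for cytokines (-1.96, against -1.95 in CMT-W2). The prostaglandin list includes PLA2G7. Its median for macrophage surface genes in the cancer cells includes lower bounds.

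The 4 ribosomal protein genes with a symbol were all up-regulated in the sorted macrophages, with a median of 4.01 (2.19 to 3.88 in the other co-cultures), and lay between -0.07 and 0.79 in the cancer cells. RPL23 was at 4.17 and 3.81, and its level went from 14.48 in macrophage mono-culture to 18.47 in the sorted macrophages, close to the 18.16 of the sorted CMT-W1 cells. MYC, a regulator of growth, was at 5.09 and 5.67 in the macrophages.

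Of 8 matrix and mesenchymal genes measured in the macrophages 3 were up-regulated, where 15.1% of all measured genes were. CAV1, the coat protein of caveolae, was at 6.30 and 5.97, a bound of at least 19.5-fold with no set place among the co-cultures. SERPINH1, a collagen chaperone, was at 4.77 and 6.24, among the other co-cultures. The other measured probes of SERPINH1 gave -0.56 and 0.18 in the macrophages, so its increase rests on 1 probe. CAV1 was the 1 gene of 8 called in the CMT-W1 cells and was down-regulated (-1.93 and -1.92), among the other lines (-2.47 to -0.29).

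Of the extracellular proteases, MMP9, a gelatinase of myeloid cells, was up-regulated in the CMT-W1 cells (4.21 and 3.39) and down-regulated in the macrophages (-3.38 and -4.81). MMP3, a stromelysin, was up-regulated in the macrophages (3.60 and 3.29) as a lower bound of at least 2.38-fold, beside ratios of 6.65 to 8.73 in the other 3 co-cultures in which it was measured. VEGFA, the growth factor of vessels, was up-regulated in the CMT-W1 cells at 2.75 and 2.76, above the -0.41 to 1.90 of the other lines (limma adjusted p = 0.905). Its level was lowest in CMT-W1 in both cultures, 10.75 in mono-culture (12.85 to 16.69 in the others) and 13.50 in the sorted cells (14.75 to 16.29). ADM, a vasodilator peptide also induced by hypoxia, was at 1.87 and 1.73 in the cancer cells.

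The remaining lists held few calls. Among drug transporters none of 4 was called in the cancer cells, and in the macrophages ABCC5 (mean 6.28, at least 20.4-fold; a second probe 3.60) and ABCC2 (2.35 and 2.93) were up-regulated while ABCB1 was down-regulated (-2.18 and -2.39), the lowest of the 5 pairs. Of adhesion molecules, PDPN, a mucin of lymphatic and activated cells, was down-regulated in the macrophages (-5.39 and -6.06). Among epithelial genes CLDN3 was at -1.65 and -1.33 in the cancer cells and OCLN at 2.38 and 1.86 in the macrophages, where its mono-culture was at background and no bound above 1 could be set. S100A8, a calcium-binding protein of granulocytes and monocytes, was at 3.99 and 2.74 in the cancer cells and at -5.72 and -7.43 in the macrophages. In CMT-W1 mono-culture it was above background on 1 array only, so the size of its change in the cancer cells is not set. MS4A1, a marker of B cells, was at 4.27 and 5.87 in the macrophages, where CMT-W2 stood at 5.83 and the other 3 co-cultures at -0.25 to 1.72. It was the only 1 of 4 lymphocyte markers measured there that was called. The median of the 4 was -0.91 and the lowest -2.26. The only Wnt pathway gene measured in the cancer cells, CTNNB1, was at 0.07 and 0.46.

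Of the 9 named genes down-regulated in the CMT-W1 cells, 5 were not above background on either array of the sorted cells. CES1, a carboxylesterase, was at -5.94 and -5.16, a bound of at least 14.9-fold lower, and below the other lines (-3.80 to -2.12). CGN, a protein of tight junctions, was at -3.21 and -3.32 (its other measured probe at -0.07), and TMEM47 at -3.84 and -2.80 (at least 2.58-fold lower). EDN1, a vasoconstrictor peptide, was at -1.95 and -2.06 and lay below the other lines (-0.44 to 0.88; limma adjusted p = 0.905). SLC2A9, a urate transporter, was at -2.57 and -1.77 in the cancer cells (at least 3.47-fold lower) and at -4.98 and -6.70 in the macrophages. DHRS4, a reductase, was at -1.81 and -1.62 in the cancer cells, and its other measured probe at -0.11.

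Several of the highest ratios in the macrophages were of genes at background in macrophage mono-culture. YES1, a kinase of the Src family, was at 6.32 and 6.38 (at least 21.3-fold); it was measured besides in CMT-W2 only, at 4.82. BDNF, a neurotrophin, was at 6.52 and 5.72 (at least 22.9-fold), and was measured besides in CMT-W2 and CMT-U309, at 4.07 and 3.25. GNAT1, a transducin subunit, was at 5.27 and 5.29 (at least 15.98-fold), and was measured besides in CMT-W2 only, at 3.89. ADGRL2, an adhesion receptor, was at 5.35 and 5.31 (at least 12.01-fold). At the other end of the scale MT2A, a metallothionein, was at -5.48 and -6.16 against -3.58 to 1.16 in the other co-cultures (limma adjusted p = 0.247), and CCL13, a monocyte chemokine at background in the sorted macrophages, was at least 34.9-fold lower.

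The test of CMT-W1 against the other 4 lines took its spread from those 4. None of 17735 genes passed an adjusted p of 0.05 in limma in the cancer cells (smallest 0.854), and 817 (4.61%) had an unadjusted p under 0.05. The macrophages had 0 of 22683 genes past the adjustment and 4282 (18.9%) with an unadjusted p under 0.05; the smallest adjusted p was 0.247. Without CMT-W2, 105 genes passed in the macrophages. The methods' t-test on the same values gave 0 genes after Benjamini-Hochberg in either population, and 8 and 32 genes in the cancer cells and the macrophages at the unadjusted threshold of the methods. A single co-culture against 4 has few degrees of freedom, and 0 passing genes does not show that CMT-W1 responded like the others.

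Other named genes with the smallest p in the cancer cells were UACA, CD38 and GJA1. CD38, an ectoenzyme of leukocytes, was at 0.84 and 0.71, with its mono-culture above background on 1 of the arrays, beside 4.13 to 6.58 in the other lines (limma adjusted p = 0.905). UACA, a protein of the apoptosome pathway, was at 1.48 and 1.77 and the other lines at -1.97 to -0.72. GJA1, a gap junction protein, was at 3.23 and 1.55, and the other 3 lines in which it was measured were between -0.77 and 0.13.

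In the macrophages the smallest p among named genes was that of CYB5R3, a reductase of the endoplasmic reticulum, at 4.19 and 6.02 against 1.76 to 2.46 (difference 3.07 ± 0.48, SE; limma unadjusted p = 0.000551, adjusted p = 0.247). With normexp and loess the difference was 1.03 (adjusted p = 0.214). The bound is at least 15.4-fold, since CYB5R3 was at background in macrophage mono-culture. HSP70, a chaperone, was at 3.32 and 4.01 against 0.31 to 1.45. SSR2, of the protein translocation machinery, was at -1.47 and -1.40, while the other co-cultures lay between 0.37 and 1.38. SLC5A2, a sodium and glucose transporter, also had a small p (0.00129 in limma, adjusted p = 0.247), but its arrays disagreed, with -0.12 and -7.08. The signal of the mono-culture was 736 on the first array and 111784 on the second, and another probe of the gene gave a mean of 0.05.

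The ratios of both populations of the CMT-W1 co-culture were then set side by side. Over the 18484 genes measured in both, the correlation of their log2 ratios was -0.00245, across genes and over arrays of different slides. Of the 809 genes up-regulated in the cancer cells, 235 (29.0%) were down-regulated in the macrophages and 205 (25.3%) were up-regulated there, where 6.37% and 17.7% of all these genes were. Of the 384 genes down-regulated in the cancer cells, 90 (23.4%) were up-regulated in the macrophages. The 235 genes were 19.9% of those down-regulated in the macrophages. The ratio of macrophages to cancer cells was compared with that of the other co-cultures by an interaction in limma, and none of 17225 genes passed (1285, 7.46%, with an unadjusted p under 0.05; smallest adjusted p 0.267). Among named genes CXCL8 had one of the 5 smallest p, with a difference of -8.26 ± 2.35 (SE; limma unadjusted p = 0.0061, adjusted p = 0.658). The others were SLC5A2, USP11, MAP2K2 and RARA. The interaction fit had no term for the co-culture, so both populations of each co-culture were treated as independent.

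**Figure D4:**
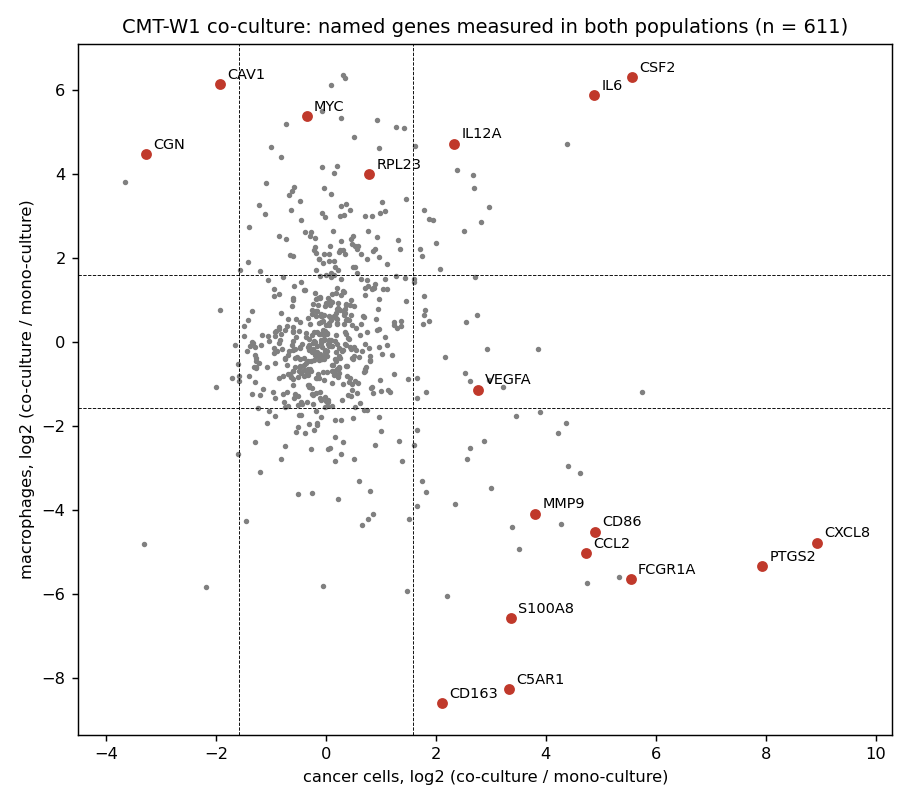
Log2 ratio of co-culture to mono-culture in the CMT-W1 cancer cells (horizontal axis) and in their macrophages (vertical axis) for the 611 named genes measured in both, each point the mean of 2 arrays; dashed lines mark 3-fold. CXCL8, PTGS2 and the macrophage surface genes lie at the lower right, CSF2 and IL6 at the upper right, and CAV1 and CGN at the upper left.

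The macrophage pair of CMT-W1 was set apart by the spread of its ratios. Over 21484 genes measured in all 5 macrophage pairs the SD of the log2 ratio was 1.74, against 1.44 to 1.65 in the others, and CMT-W1 had the lowest ratio for 28.5% of genes and the highest for 33.9%. The dye-swap difference was also largest in that pair, with a median of 0.37 on the log2 scale against 0.23 to 0.33; its part in the extremes was not tested. The SD in the cancer cells was the smallest of the 5 lines (1.04 to 1.54 in the others), and CMT-W1 was lowest for 17.1% and highest for 25.6% of 16709 genes. The sorted macrophages correlated with r = 0.78 with macrophage mono-culture, r = 0.77 with CMT-W1 mono-culture and r = 0.84 with the sorted cancer cells over levels of 18495 genes. The sorted cancer cells correlated with r = 0.90 with their own mono-culture and r = 0.54 with macrophage mono-culture (0.75 to 0.89 in the others), where the mono-cultures themselves correlated with r = 0.50 (0.63 to 0.78 in the others).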

How the data were processed

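The members and the gene lists were chosen with earlier results of these data known. The authors deposited scanner output of Agilent Feature Extraction (version 10.7.3.1, per the labels), with spot intensity columns on a linear scale and a log10 ratio of Cy5 over Cy3 after background subtraction and dye normalization; flag columns mark spots above background, saturated spots and outlier spots. The authors' deposited value table equals that log10 ratio, turned to co-culture over mono-culture, within 5e-06. No column was without a sample.

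Each log ratio, given the sign of its dye orientation, was converted to log2, and the arrays of a dye-swap were averaged, leaving out outlier spots. Where several probes named a gene, the brightest stood for it, and genes were tested where measured in CMT-W1 and at least 3 of the other 4 pairs. limma (version 3.58.1, R 4.3.3) compared CMT-W1 with the other 4 co-cultures, adjusting by Benjamini-Hochberg over all genes tested; the interaction set macrophages against cancer cells. The scripts were tested on simulated data. Levels came from Aquantile normalization of the processed signals and bounds from the lowest signal well above background. Symbols came from RefSeq accessions (assembly UU_Cfam_GSD_1.0), which named 1638 of 43603 probes. Figures used Python 3.11.15 and matplotlib. The number of arrays limits the precision. Named were CD163, CD80 and CCL2, the largest and smallest changes of each list, the 10 highest and 10 lowest genes called in each population and the 5 smallest p of each test; other list members were chosen after their values were seen, and some genes under these rules are not reported here. Alternatives covered background correction, centring, filters, dye, probes, blocks and lines left out.

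The populations of one co-culture share the line and are paired by design. Across 16158 genes, their deviations from the group means correlated with r = 0.27 for CMT-W1, 0.05 for CMT-W2, 0.02 for CMT-U27, 0.47 for CMT-U309 and 0.20 for P114, against -0.39 to 0.20 between different co-cultures.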

Additional observations from a re-analysis of the deposited data

Results flagged for a closer look

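Among 75 combinations of a named gene and a population that were measured in all 5 co-cultures, 5 had a co-culture far from the other 4, by the gap to its neighbour over the whole range (Dixon's ratio above 0.71). Chance marks about 1 in 20 groups that were not picked by their values, but several of these genes were named for their small p in the same comparison, so that rate does not apply here and nothing is read from the number marked.

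CD163 and IL1A stood low in the CMT-W1 cancer cells, with ratios of 0.73 and 0.793. CD163 was at 2.11 with the next line at 5.88 and the highest at 7.28, and IL1A at 2.36 with the next at 5.61 and the highest at 6.47. Both mono-culture channels were at background in CMT-W1, so both values are lower bounds and their distance from the other lines is not set.

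In the macrophages CYB5R3 stood high in CMT-W1 (Dixon's ratio 0.792; 5.11 against 2.46 for the next co-culture). SLC5A2 stood low there (0.756; -3.60 against -1.13), and that value rested on the array with the co-culture in Cy3. SERPINH1 stood low in the CMT-U27 cancer cells (0.74; -1.50 against -0.07). Of its probes, the others measured in CMT-W1 gave -0.01 and -0.02 there.

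Both CMT-W1 arrays ran opposite to all 8 arrays of the other lines for 4 combinations, and the difference in direction was not tested. In the cancer cells these were UACA, with a mean of 1.62, whereas the others were all below 0 (highest -0.52), and HSP70, with 2.69 against -6.89 to -0.06. Other probes of HSP70 gave -0.59, 2.24 and 0.35 in the CMT-W1 cells. In the macrophages they were SSR2, with -1.43 against 0.25 to 1.58, and RARA, with 1.34 against -1.76 to -0.30. A second RARA probe gave -0.14.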

How the results depend on the processing

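Most counts kept their size: 65 of 79 counts under the alternatives lay within 1.5 times that reported or stayed at 0. The 0 passing genes in the macrophages became 105 when CMT-W2 was left out and ranged from 0 to 105 over the 4 lines left out; 40 with the co-culture in Cy3 only; and 4 in one fit of both cell types. In the cancer cells leaving out a line gave 0 to 0, and 10 arrays with the replicate number as a replicate block gave 1 gene (probe A_11_P132936, no symbol; limma adjusted p = 0.0183). In the macrophages that block gave 0. The interaction had 34 genes with Cy3 only and 4 with normexp and loess (SLC5A2 and 3 without a symbol), 0 with the co-culture as a replicate block, and 0 to 0 with a line left out. The cause of these changes was not tested. The calls at 3-fold, 1247 in the cancer cells and 6059 in the macrophages, were 213 and 2590 with normexp and loess, and 561 and 4023 where both cultures had to be above background. At 2-fold they were 3048 and 10006, and at 4-fold 766 in the cancer cells. With 1 array alone (chosen after the data were seen) they were 1696 to 2035 in the cancer cells and 7565 to 8173 in the macrophages. Centring on the measured genes, also chosen after the data were seen, gave 1239 and 6050.

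The differences of CMT-W1 from the others that turned direction, none of which had passed, were those of CXCL8 (-0.61) and PTGS2 (-2.90) in the cancer cells with normexp and loess, CCL2 there without CMT-W2 (0.18) and PTGS2 there without CMT-U309 (-0.057). In the macrophages they were SLC5A2 with the co-culture in Cy5 only (0.52) and CD80 without P114 (-0.23). For the interaction it was CD163 with Cy3 only (-0.74) and without CMT-W2 (-0.51). Over the lines left out these ranged from -0.34 to 0.18 for CCL2, -0.057 to 1.94 for PTGS2, -0.23 to 0.73 for CD80 and -0.51 to 2.04 for CD163. CD163 and CD80 in the CMT-W1 cells were at 0.22 and 0.24 with normexp and loess, so their size there is limited by signal over background.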
